A study of Arabidopsis thaliana with 12 samples.

Results

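Of 3439 array features, 14 gave a signal in dark-adapted plants of the Arabidopsis thaliana mutant laf6 where WT plants were mostly listed at 0. They were selected on the deposited intensities of the same arrays: a feature had to be exactly 0 on at least 4 of the 6 WT arrays and above 0 on at least 5 of the 6 laf6 arrays. The rule took in 16 features, and those annotated with GLX2-1 and TPP2 were set aside, which left 14. A feature is 1 entry of the array data, known here by its number.

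Both groups were of the Landsberg ecotype and were dark adapted. The groups were WT, with 6 arrays of total RNA, and laf6, with 6, the latter described in the labels as a mutant without the transporter atABC1. Neither the allele nor the age, organ or number of plants is given in the labels, and nothing in them says that the 6 arrays of a group came from separate plants. The spread between arrays may therefore be technical.

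The laf6 mutant takes its name from long after far-red, a class of seedlings that respond weakly to far-red light, the light sensed by phytochrome A. The gene, AT4G04770, is listed in the RefSeq table as ABCI8 with ATABC1 and LAF6 among its synonyms. It is also known as SUFB, a soluble plastid protein of the SUF machinery, which builds iron-sulfur clusters inside plastids. Such clusters are cofactors of photosystem I, ferredoxin and several plastid enzymes, and the mutant is known to accumulate the chlorophyll and heme precursor protoporphyrin IX. No feature of the table listed AT4G04770, so the transcript of the mutated gene was not analysed here, and it gives no check of the labels.

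Intensities carry no absolute unit and run on every array from exactly 0 to a top value that was nearly the same on all 12. No source used here says how a 0 arose, so a feature at 0 may still have a low transcript level. In bulk RNA, fewer cells that express a gene and less RNA per cell cannot be told apart. The labels name no organ. Of 8 preset leaf genes 4 were measured and gave a signal on all 12 arrays. None of 7 seed, root and pollen markers was measured by a single-gene feature, so these lists cannot tell which organ was sampled. The median intensity ran from 0.218 to 0.289 over WT arrays and from 0.178 to 0.202 over laf6 arrays. A two-sided exact permutation test gave p = 0.00216, the smallest possible with 6 separate arrays a group, or 0.00432 adjusted over 2 measures. These medians are of deposited values, on a scale whose top was held by a different feature in each group. Whether that scale bears on the difference in medians was not tested, so it is not read as a lower signal in laf6. Features listed at 0 numbered 447 to 540 per WT array and 491 to 674 on those of laf6 (same exact permutation test, p = 0.0152 before and after adjustment). Arrays of laf6 thus held more zeros in general, the opposite of the pattern the 14 features were chosen for. Both tests took the 12 arrays as separate, unpaired samples, which the labels do not state. If some arrays are repeat measurements of the same RNA, these p-values are too small. Replicates 1 and 2 of both groups stood apart from the other arrays on the second principal component, which held 12.4% of the variance.

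Of the 14 features, 3 had a single annotated gene, AT4G05030, AT4G35980 and AT5G46420. The other 11 had no entry in the platform annotation and are given by number, and none listed several genes. Of all features, a single gene was given for 20.1%, several genes for 25.3% and no entry for 54.6%. The tables used here give these 3 genes no symbol beyond the locus name and no description, so their roles are not stated.

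AT4G05030 was listed at 0 on WT replicates 1, 2, 5 and 6, with 0.0254 on replicate 3 and 0.0766 on replicate 4. Its laf6 intensities were 0.0422, 0.0376, 0.0757, 0.163, 0.0858 and 0.106 in the order of replicates 1 to 6. It was the only one of the 3 named genes with a signal on every laf6 array, but the groups overlapped, because WT replicate 4 lay above laf6 replicates 1, 2 and 3. On the log2 scale, after quantile normalization and with zeros raised to a floor of -7.39, the difference between laf6 and WT was 3.26 ± 0.55 (SE, n = 6 each). The size of such a difference depends on that floor: it was 1.62 with the floor at the 5th percentile of positive values and 5.25 with it at the 0.1th percentile.

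AT4G35980 was listed at 0 on WT replicates 1 to 4, with 0.0276 on replicate 5 and 0.0118 on replicate 6. In laf6 it had 0.0662, 0, 0.149, 0.103, 0.0895 and 0.123 on replicates 1 to 6. The 5 laf6 arrays with a signal lay above every WT array, and replicate 2 was at 0 like most of WT. The log2 difference was 3.44 ± 0.73 (SE, n = 6 each) and was 1.33 with an offset in place of the floor.

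With the arrays taken as unpaired, AT5G46420 was the least separated of the named genes. Its WT intensities were 0 on replicates 1, 3, 5 and 6, 0.0131 on replicate 2 and 0.133 on replicate 4. Its laf6 intensities were 0.0214, 0.0438, 0.0395, 0.421, 0 and 0.0107 on replicates 1 to 6. Replicate 4 was the highest array in both groups, and it was the only laf6 array above the highest WT array. The log2 difference was 1.97 ± 1.09 (SE, n = 6 each). With replicate number as a block the SE was 0.517, although the labels name no pairing of the arrays.

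**Figure D1:**
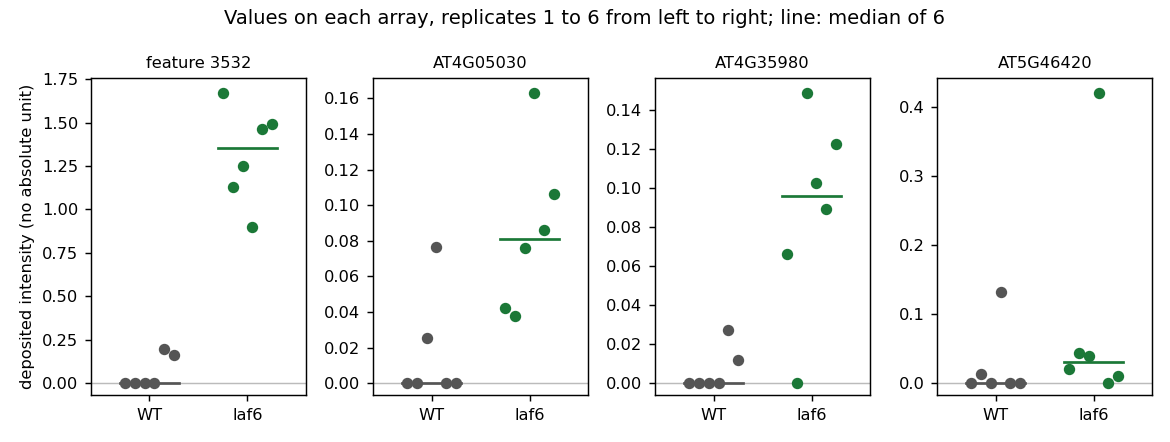
Deposited intensity (vertical axis, no absolute unit, a separate scale in each panel) of feature 3532 and of the 3 single-gene features on each of 6 WT and 6 laf6 arrays; points are arrays in the order of replicates 1 to 6 and lines are medians. Feature 3532 separates the groups, with laf6 from 0.898 to 1.67 and WT up to 0.197, while the laf6 and WT arrays of the 3 named genes overlap.

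Feature 3532 differed from the other 13 in its brightness. It was listed at 0 on WT replicates 1 to 4, with 0.197 on replicate 5 and 0.162 on replicate 6. Its laf6 intensities were 1.67, 1.13, 1.25, 0.898, 1.46 and 1.49 on replicates 1 to 6, a mean of 1.32 ± 0.28 (SD, n = 6). The lowest laf6 array was 4.56 times the highest WT array, so the groups did not overlap. Its laf6 mean ranked 255 among the 3439 features. Of the 323 features with a laf6 mean of at least 1, it was the only one at 0 on at least 4 WT arrays. Just below that mean stood feature 1296, at 0.991, which was at 0 on all 6 WT arrays but also on 3 laf6 arrays, and which owed its mean to laf6 replicate 6 (5.87). The annotation has no gene for feature 3532, so the brightest member of the set is unnamed here.

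The feature numbered 533 was the only other one whose groups did not overlap. It had 0.0967 and 0.104 on WT replicates 1 and 2 and 0 on the other 4, against 0.24, 0.221, 0.141, 0.224, 0.113 and 0.241 on laf6 replicates 1 to 6. The margin was small, since the lowest laf6 array was 1.09 times the highest WT array. Over the whole table every laf6 array lay above every WT array for 171 features, or 4.97%, against 2 of the 14 here, and as the rule used these values the 2 counts are set side by side with no reading.

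Feature 22 had 0.0822 on WT replicate 3, 0.0268 on replicate 5 and 0 on the other 4. Its laf6 intensities were 0.253, 0.132, 0.309, 0.121, 0.167 and 0.0276 on replicates 1 to 6. A signal was thus recorded on all 6 laf6 arrays, 5 of which lay above the highest WT array.

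Features 3212 and 1726 were the 2 that had no signal on any WT array. Feature 3212 had 0.0163, 0.264, 0.099, 0.309, 0 and 0.224 on laf6 replicates 1 to 6. Feature 1726 had 0.00427, 0.0768, 0, 0.0942, 0.0763 and 0.158. Each was therefore also at 0 on 1 laf6 array, and no fold change is given against a group listed wholly at 0.

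Features 3658 and 2271 each had 1 WT array above their laf6 median, which was 0.0449 in feature 3658 and 0.0941 in feature 2271. Feature 3658 had 0.212 on WT replicate 5 and 0 on the other 5, against 0.0223, 0.0503, 0.118, 0, 0.222 and 0.0395 in laf6. Feature 2271 had 0.00431 and 0.119 on WT replicates 1 and 2 and 0 on the other 4, against 0.0722, 0.117, 0.149, 0.116, 0.0186 and 0 in laf6. In both, a single laf6 array exceeded the highest WT array.

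The remaining 5 features were dimmer still, with laf6 means from 0.0245 to 0.0682, feature 1726 included. Feature 2068 was at 0 on 5 WT arrays, with 0.0175 on replicate 5, and reached 0.166 on laf6 replicate 6. Feature 3211 had laf6 intensities up to 0.099 and WT intensities up to 0.0305. Feature 2538 reached 0.09 in laf6 and 0.0572 in WT. Feature 1121 had a laf6 median of 0.00917, below its 2 WT signals of 0.0523 and 0.0498, and only laf6 replicate 6 (0.111) exceeded them. The rule is met in feature 1121 although its typical laf6 signal is lower than the WT signal where WT had one.

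**Figure D2:**
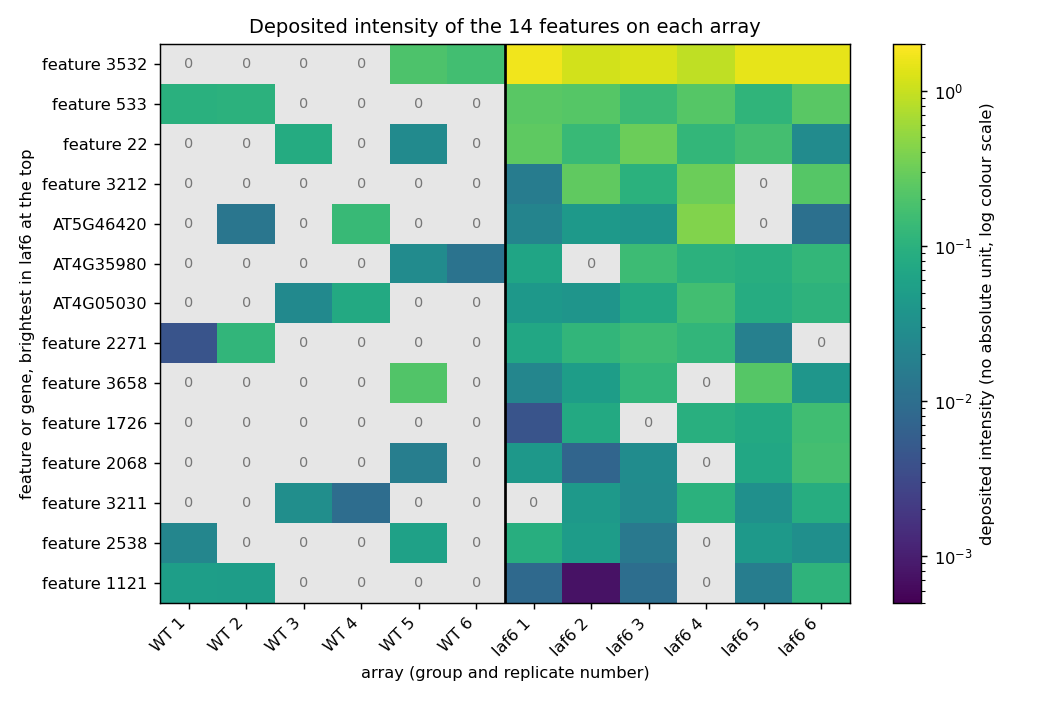
Deposited intensity (colour, log scale, no absolute unit) of the 14 features in rows, brightest laf6 mean at the top, on the 12 arrays in columns; grey cells marked 0 were listed at 0. WT holds 62 zeros among 84 values and laf6 holds 10, of which 4 are on replicate 4, and feature 3532 alone is at 0.898 or above on all 6 laf6 arrays.

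Over the 14 features, WT had a signal in 22 of 84 values and laf6 in 74 of 84, shares that the rule sets. Where WT had a signal it had a median of 0.0511 and a range of 0.00431 to 0.212, and the laf6 signals had a median of 0.0921 and a range of 0.000751 to 1.67. Both ranges reach down near the floor of the arrays. Without feature 3532, the summed intensity of the other 13 was 0.0118 to 0.341 on WT arrays and 0.878 to 1.65 on laf6 arrays. With it the sums were 0.138 to 0.538 and 2.18 to 2.81, so that 1 feature supplied a large part of the laf6 signal of the set.

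Of the 14 features, 10 met the WT part of the rule at its limit, with exactly 4 zeros, while 2 had 5 zeros and 2 had 6. The laf6 part was met on exactly 5 arrays by 10 features and on all 6 by the other 4, namely AT4G05030 and features 22, 533 and 3532. At both limits at once stood 6 of the 14. The laf6 zeros were not spread evenly over arrays: 4 of the 10 lay on replicate 4, 2 on replicate 5 and 1 on each of the others, although replicate 4 had fewer zeros over the whole table (601) than replicates 1, 2 and 3 (674, 635 and 649).

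**Figure D3:**
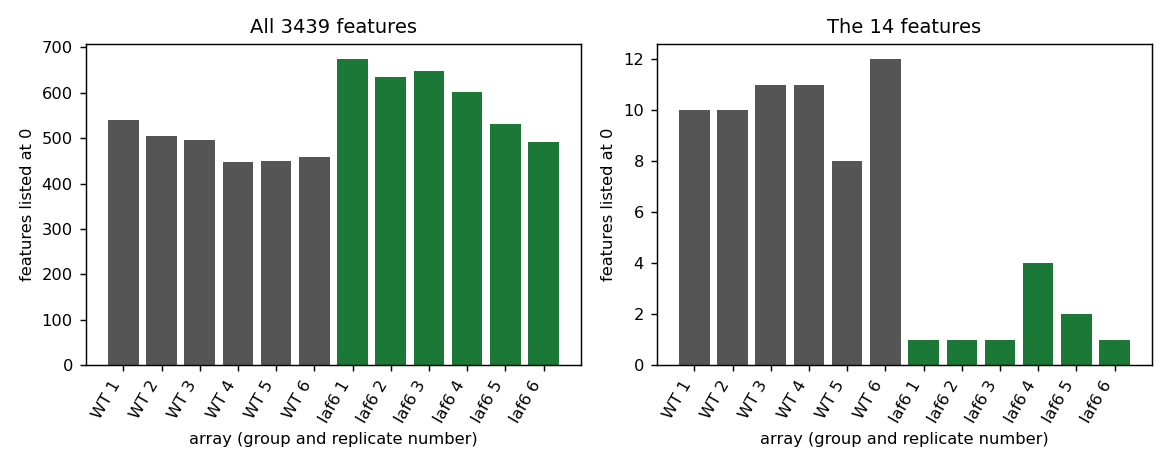
Number of features listed at 0 on each array (bars, from 0) among all 3439 features on the left and among the 14 on the right, with WT arrays in grey and laf6 arrays in green. Over all features laf6 replicates 1 to 4 have the most zeros, 601 to 674, whereas among the 14 features the WT arrays have 8 to 12 zeros and the laf6 arrays 1 to 4.

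Just outside the rule stood 15 features with exactly 3 WT arrays at 0 and a signal on at least 5 laf6 arrays, and 21 features with at least 4 WT arrays at 0 and a signal on exactly 4 laf6 arrays. Their laf6 means had medians of 0.0666 and 0.0248, against 0.0819 for the 14 members. AT1G04420 was the single-gene feature of the first kind, with WT values of 0, 0.0589, 0, 0, 0.0822 and 0.0873 and laf6 values of 0, 0.17, 0.0555, 0.111, 0.0625 and 0.226. Of the second kind 3 had a single gene, and the 2 with the highest laf6 means are given. APTX had 0.996 and 0.878 on WT replicates 3 and 4 and 0 on the other 4, against 0, 0, 0.369, 0.393, 0.632 and 0.165 in laf6. APTX was thus brighter in WT than in laf6 on the 2 WT arrays that recorded it. AT4G12270 had 0.025 and 0.0723 on WT replicates 5 and 6, against 0.0492, 0.055, 0, 0, 0.115 and 0.175 in laf6.

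The same rule with the groups exchanged, 0 on at least 4 laf6 arrays and a signal on at least 5 WT arrays, held for 71 features. Of these, 16 were at 0 on all 6 laf6 arrays, while 2 of the 14 were at 0 on all 6 WT arrays. The mean WT intensity of the 71 had a median of 0.102, close to the 0.0819 of the 14 in laf6, and 1 feature in each set exceeded 1. These 2 features were unlike. Feature 2885, of the exchanged set, had a mean of 1.46 in WT but 2.2 in laf6, although at least 4 of its laf6 arrays were at 0. Feature 3532 had a mean of 0.0598 in WT and 1.32 in laf6. The laf6 arrays also held more zeros over all features, and whether this gives rise to the imbalance was not tested. When the 674 dimmest features of every array were counted as silent, so that all arrays had the same number, an alternative added after seeing the data, the counts were 32 and 56. Of the 14 features 10 were among the 32.

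**Figure D4:**
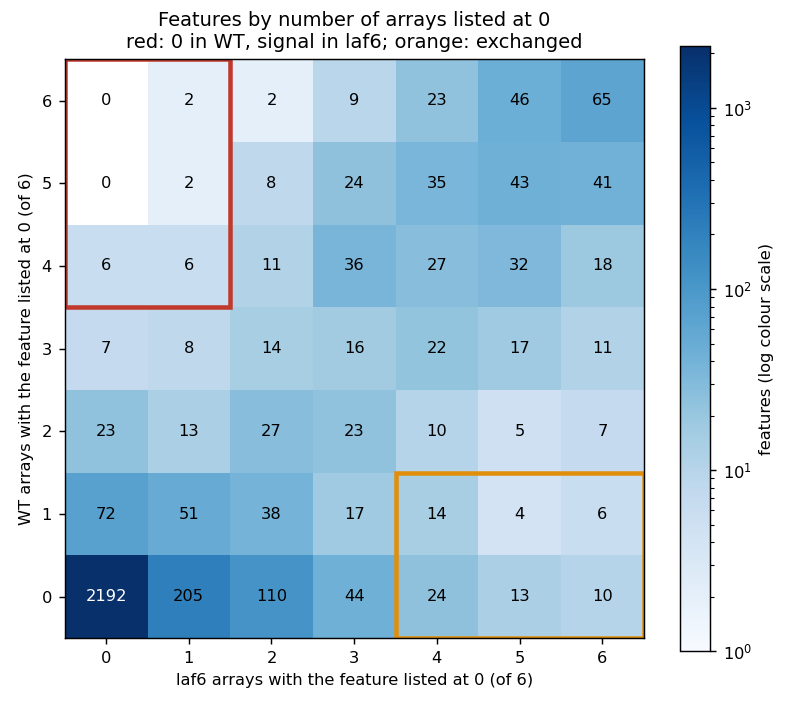
Number of features (printed in each cell, colour on a log scale) by how many of 6 WT arrays (vertical axis) and how many of 6 laf6 arrays (horizontal axis) listed them at 0. The red frame holds the 16 features that meet the rule, GLX2-1 and TPP2 included, and the orange frame the 71 that meet it with the groups exchanged; 2192 features had a signal on all 12 arrays.

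The 14 features were dim. Their laf6 means ran from 0.0245 to 0.197 apart from feature 3532, and 12 of the 14 lay below the median of all features (0.188). Of all features, 1262 had a laf6 mean within 0.0245 to 0.197, and 940 of these had a signal on at least 5 laf6 arrays. Of those 940, 884 also had a signal on at least 5 WT arrays and 15 were at 0 on at least 4 WT arrays, the latter being 13 of the members with GLX2-1 and TPP2. A laf6 signal of this strength on at least 5 arrays therefore went with a WT signal on at least 5 arrays in most of these 940 features.

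**Figure D5:**
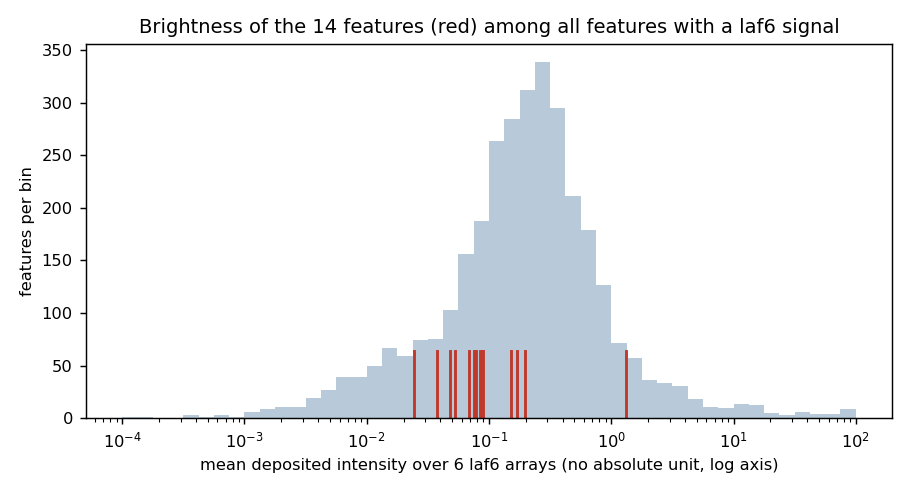
Histogram of the mean deposited intensity over 6 laf6 arrays (horizontal log axis, no absolute unit) for all features with a laf6 signal, with red lines at the 14 features. Of the red lines 13 lie from 0.0245 to 0.197, in the lower and middle part of the range, and feature 3532 stands apart at 1.32.

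The position of the WT signals had a pattern that the rule did not use. Of the 10 members with a signal on exactly 2 WT arrays, 7 had it on adjacent replicate numbers: replicates 1 and 2 in 3 features (533, 1121 and 2271), replicates 3 and 4 in 2 (AT4G05030 and 3211) and replicates 5 and 6 in 2 (AT4G35980 and 3532). Among the other 126 features of the table with exactly 2 WT signals, 25 (19.8%) had them on such a pair. Nearly all of these 126 had a signal on fewer than 5 laf6 arrays, so they were unlike the members in laf6 signal. Of the 15 possible pairs of 6 arrays, 3 are adjacent in this sense. Arrays with adjacent numbers also resembled each other more over all features (mean Spearman correlation 0.94 against 0.92 for other WT pairs, and 0.87 against 0.85 in laf6, as descriptions over features). Whether adjacent numbers are repeat measurements of the same RNA is not given in the labels, and no test of this pattern was made. If they are, a signal on 2 such arrays is 1 sample with a signal. Taking adjacent numbers as 1 sample, an alternative added after seeing the data, 44 features were at 0 on both arrays of at least 2 WT pairs with a signal in every laf6 pair, 11 of the 14 among them.

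In numbering on the array, which runs from 1 to 4607 with gaps, features 3211 and 3212 were neighbours. What the numbering means for position on the array is not stated. Their laf6 values had some likeness, with the highest value on replicate 4 in both (0.099 and 0.309), but feature 3211 was at 0 on replicate 1 and feature 3212 on replicate 5.

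AT4G05030 lies on the chromosome of the mutated gene, 33 protein-coding genes from AT4G04770 in the RefSeq table of assembly TAIR10.1. Of the single-gene features within 60 protein-coding genes of AT4G04770, 3 were measured, a window chosen after the values were seen. Besides AT4G05030 these were AT4G05070, 4 genes further on, and AT4G04370, 37 genes to the other side. AT4G05070 rose from 1.90 ± 0.56 to 7.19 ± 1.35 in deposited intensity (SD, n = 6 each; log2 difference 2.16 ± 0.16 (SE), limma adjusted p = 2.05e-06). AT4G04370 fell from 0.702 ± 0.153 to 0.362 ± 0.0737 (log2 difference -0.53 ± 0.17 (SE), limma adjusted p = 0.0402). The call of AT4G04370 was marginal and was lost under 11 of 24 alternatives, among them leaving out WT replicate 3, 4, 5 or 6 or laf6 replicate 1, 4, 5 or 6 (adjusted p up to 0.12 over all alternatives), while AT4G05070 passed under all 24. In both genes all laf6 arrays lay on 1 side of all WT arrays, and these 2 were not used by the rule. These 3 genes are too few to say whether the neighbourhood differs from the rest of the table, and whether the mutant carries linked differences was not tested.

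In the limma fit over all 3439 features, 9 of the 14 passed an adjusted p of 0.05 as higher in laf6, where 428 of all features (12.4%) were higher and 473 (13.8%) lower. The members were chosen by this same contrast, so their count is printed for completeness and nothing is read from it. Their log2 differences ran from 1.11 in feature 1121 to 6.36 in feature 3532, with a median of 3.08, against -0.02 for all features. The mean log2 intensity of the 14 in laf6 had a median that differed by -1.72 from that of all features. Without replicates 1 and 2 of both groups 5 of the 14 passed, and 709 of all features, of which 338 were higher and 371 lower.

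None of the 3 named genes belonged to the 7 gene lists drawn up for this mutant, and for the 11 features without an entry this is unknown. These lists hold 97 entries, of which 8 were measured by single-gene features. No gene of plastid iron-sulfur assembly (11 genes), phytochrome signalling (16) or the other-tissue markers (7) was measured. Of the 27 tetrapyrrole genes 2 were measured and both rose: CHLM, the methyltransferase of magnesium protoporphyrin IX, by 1.28 ± 0.26 on the log2 scale (SE, limma adjusted p = 0.00309), and SIRB, the ferrochelatase of siroheme synthesis, by 1.89 ± 0.63 (adjusted p = 0.0468). The call of SIRB was lost under 19 of 24 alternatives, among them leaving out any array but laf6 replicate 3 (adjusted p up to 0.24), and that of CHLM with adjacent replicate numbers averaged (adjusted p = 0.0627). Of 8 leaf genes 4 were measured, 3 rose and 1 fell, with PSAN, a photosystem I subunit, at 1.72 ± 0.10 (adjusted p = 2.88e-07) and LHB1B2, an antenna protein, at 1.23 ± 0.15 (adjusted p = 8.06e-05), a difference that ran from 1.39 to 2.11 under the other scalings. The third, PRK, a Calvin cycle enzyme, rose by 1.17 ± 0.24 (adjusted p = 0.00391), a call lost with adjacent replicate numbers averaged (adjusted p = 0.0695). PSBW, a photosystem II subunit, fell by 1.31 ± 0.11 (adjusted p = 6.67e-06), but did not pass with median scaling (-0.39, adjusted p = 0.134) or 75th percentile scaling (-0.36, adjusted p = 0.135). CCS, the copper chaperone of superoxide dismutase and the single metal-handling gene measured of 17, stood at 1.32 ± 0.82 (adjusted p = 0.289), and ETFQO, the single dark-induced gene of 11, at 0.06 ± 1.25 (adjusted p = 1.0). All 8 had a signal on at least 4 arrays of each group.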

How the data were processed

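Total RNA of 6 WT and 6 laf6 samples was measured on single-colour arrays, with groups and replicate numbers from the titles. The deposited table holds linear intensity values for 3439 features, and the steps by which the authors made them (scanner, background correction, scaling) are not stated. The rule was applied to the deposited intensities as they stand. The members and gene lists were chosen with earlier results of these data known. Array medians differed by up to 1.62 times, so intensities were quantile normalized, given a lower limit of 0.00597, the 1st percentile of the positive values, and put on the log2 scale. All features were fitted with limma 3.58.1 in R 4.3.3 (lmFit, eBayes, no covariates, two-sided, Benjamini-Hochberg over 3439 features, threshold 0.05). The fit was tested on simulated data with balanced, moderate differences. This design was reached after unbalanced and then larger balanced differences had given more false calls than the threshold allows following quantile normalization. In the design kept, the share of false calls was still above 0.05, and the limit for passing was set after it was seen. The counts of calls over all features are open to the same error. Array measures were compared by exact permutation in SciPy 1.17.1. The number of arrays limits the precision.

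Gene names came from the platform annotation (1562 features listed, 692 with a single gene, 690 of these matched to RefSeq by Entrez identifier). Every single-gene member is named, and of the others the 6 brightest in laf6 are given array by array. The remaining members, named by number, were added after their values were seen. From each gene list, members past the threshold are named, at most 2 in each direction. PRK, and CCS and ETFQO, the single members measured of their lists, are given in addition. No array build is stated, so no coordinates are printed, and no sequence was used here. Alternatives covered the scaling, the floor, the limits of the rule, the replicate block, array weights, a filter on dim features, averaging of adjacent replicates and leaving out each array.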

Additional observations from a re-analysis of the deposited data

Results flagged for a closer look

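The values here are deposited intensities of arrays that lay far from the other 5 of their group. Of 32 groups of 6 examined, 10 held such an array. The chance rate of about 1 in 20 holds only for values that are not at 0. As the rule puts at least 4 WT values of each of the 14 features at 0, the count is not read against that rate. In WT, features 2068 (replicate 5, 0.0175) and 3658 (replicate 5, 0.212) had the other 5 arrays at 0, where any signal stands apart. The other WT arrays, each with 1 further array above 0, were those of feature 2271 (replicate 2, 0.119), feature 22 (replicate 3, 0.0822), feature 3211 (replicate 3, 0.0305), AT4G05030 (replicate 4, 0.0766) and AT5G46420 (replicate 4, 0.133). In laf6, AT5G46420 was also highest on replicate 4 (0.421), and feature 1121 on replicate 6 (0.111). The number of the 14 features with a signal was lowest on laf6 replicate 4, at 10, against 12 or 13 on the other laf6 arrays. No cause was tested.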

How the results depend on the processing

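The number of features under the rule, 14, depended on its limits: 2 with all 6 WT arrays at 0, 4 with at least 5, 29 with at least 3, 4 with a signal on all 6 laf6 arrays and 35 with at least 4. With the groups exchanged the count of 71 became 16 with all 6 arrays at 0, 33 with at least 5, 132 with at least 3 and 47 with a signal on all 6. The count was 32 with an equal number of silent features on every array and 44 with adjacent replicate numbers as 1 sample, against 56 and 67 with the groups exchanged. Without replicates 1 and 2 of both groups, where the rule asked for 3 of 4 zeros and 4 of 4 signals, it was 2, of which 1 was among the 14, against 49 exchanged. Leaving out 1 array, with the limits lowered by 1, gave 19 to 23 features and 74 to 113 exchanged, and all 14 stayed within the rule each time by its construction. The count was over 1.5 times larger without WT replicate 3 (22), 4 (23) or 5 (23) or laf6 replicate 2, 3 or 5 (23 each), and the exchanged count without laf6 replicate 6 (113). Counting the lowest 5% of positive values as silent kept the number at 15 but shared only 6 of the 14.

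Of the 14, 9 passed the limma threshold (9 to 11 leaving out 1 array), 5 without replicates 1 and 2 of both groups and 7 with adjacent replicate numbers averaged. Over all features 901 passed (812 to 895 leaving out 1 array), 709 without replicates 1 and 2 of both groups and 545 with adjacent replicate numbers averaged, where 3 samples a group were fitted. With the values as deposited, 252 were higher and 903 lower, against 428 and 473. The median laf6 level of the 14 differed from that of all features by -1.717 on the log2 scale (-1.899 to -1.519 leaving out 1 array), which was -1.171 with cyclic loess, -1.327 with the floor at the 5th percentile, -2.208 with it at the 0.1th percentile and -0.955 with an offset. None of the 334 log2 differences of the 14 features under these alternatives was below 0, a direction that the rule itself favours. Of the other genes named, ETFQO ran from -0.57 to 0.69. Deviations of same-numbered WT and laf6 arrays had correlations of 0.0966 to 0.184 over features, and 12 of 12 arrays were closest to their own number in the other group. The main fit and the permutation tests took the arrays as unpaired and left this likeness out. With replicate number as a block 10 of the 14 and 872 of all features passed, and the SE of AT5G46420 was 0.517 in place of 1.09. The cause of these changes was not tested.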
